A study of Homo sapiens with 22 samples.

Results

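The 1001 transcript clusters described here are the units of a human whole-transcriptome array whose IDs start with TC18, out of 65526 clusters on the array. The pair of characters after TC is the chromosome code in the array maker's naming, so these are the clusters assigned to chromosome 18. They were taken by ID alone, and all 1001 entered every fit. Chromosome 18 itself was chosen by a measured value, the difference between JHOC9 and JHOC5 cells on control arrays. Values and single-cluster tests of that contrast are therefore given as a description, with no test of the chromosome as a whole, and support nothing. Across 25 codes, the number of clusters per code followed the number of RefSeq genes per chromosome (Spearman's rho 0.969), and RefSeq lists 1107 genes on chromosome 18 in GRCh38.p14. That correlation checks the reading of the code, not the place of any single cluster. Neither deposited table links an ID to a gene name or a position, so no gene is named for a cluster, no sequence is shown and the order of IDs is treated as a label only.

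JHOC9 and JHOC5 are established lines of ovarian clear cell carcinoma, an epithelial cancer of the ovary. Cells in 35 mm dishes received a lentivirus: NT, the control virus, SPINK1 KD #9, against a secreted trypsin inhibitor, or IL-6 KD#58, against an inflammatory cytokine. Each line gave 5 NT arrays, 3 SPINK1 KD arrays and 3 IL-6 KD arrays, 22 in all, from 200 ng of RNA each. JHOC9 was kept in 20% serum and JHOC5 in 10% serum, so line and serum cannot be told apart. Every group had been infected, no uninfected group was analysed here, and each target had 1 virus. The NT arrays carry the labels Experiment A to E. For the knockdown arrays the labels give only a replicate letter and do not say whether cultures were separate, so the spread behind each p-value is that of these arrays and may be partly technical. The knockdown of SPINK1 and IL-6, and markers of the tissue, could not be checked without gene names.

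Human chromosome 18 is gene-poor for its length and tends to lie near the edge of the nucleus. Its long arm carries SMAD2 and SMAD4, which relay TGF-beta signals, the apoptosis inhibitor BCL2, the netrin receptor DCC and groups of desmosomal cadherins and clade B serpins. The long arm is often lost in carcinomas of the gut and pancreas. None of the clusters below can be tied to any of these genes here.

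Signal is given as log2 values, on which 1 unit is a doubling. The median log2 signal of an array lay between 4.78 and 4.95. Within a group, the median SD of a TC18 cluster was between 0.10 and 0.12, beside 0.091 to 0.117 over all clusters. TC18 clusters were dimmer than most: 419 of 1001 (41.9%) lay above the array median on average over the 22 arrays, beside 50.3% of all clusters. These 419 are called the brighter clusters below, and the other 582 the dimmer ones. A cluster is called where limma, fitted to all 22 arrays with 6 group means, gave a Benjamini-Hochberg adjusted p under 0.05 over all 65526 clusters. Among TC18 clusters, 8 had the same values as other clusters on every array within 1e-05, so their signal cannot be assigned to chromosome 18 alone.

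On the NT arrays, the contrast that chose the chromosome, TC18 clusters were mostly lower in JHOC9 than in JHOC5 where they differed. JHOC9 was lower for 251 TC18 clusters (25.1%) and higher for 67 (6.69%). Over all clusters the shares were 13% lower and 17% higher. The lower clusters made up 78.9% of the TC18 calls, while in the other 23 codes with at least 100 clusters that share ran from 16.9% for chromosome 19 to 62.1% for chromosome X. The share of clusters called lower in those codes was at most 21.8%, for chromosome X. The share called higher was at least 10.5%, for chromosome 6. Nothing is read from these counts, since the contrast was used in the choice.

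Among the brighter TC18 clusters the median difference, JHOC9 minus JHOC5, was -0.13 log2 beside 0.07 for all brighter clusters of the array. In the other codes that median lay between -0.02 for chromosome X and 0.14 for chromosome 19. Of the 419 brighter clusters, 256 (61.1%) had a difference below 0, beside 37.5% of all brighter clusters. There were 183 called lower and 41 called higher, where brighter clusters of the whole array had 19.8% lower and 24.1% higher. Among the 582 dimmer TC18 clusters 68 were lower and 26 higher, where dimmer clusters of the whole array had 6.21% lower and 9.84% higher. Their median was 0.02, beside 0.05 for all dimmer clusters. The median over all 1001 was -2.74e-05, beside 0.05 for the array.

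**Figure D1:**
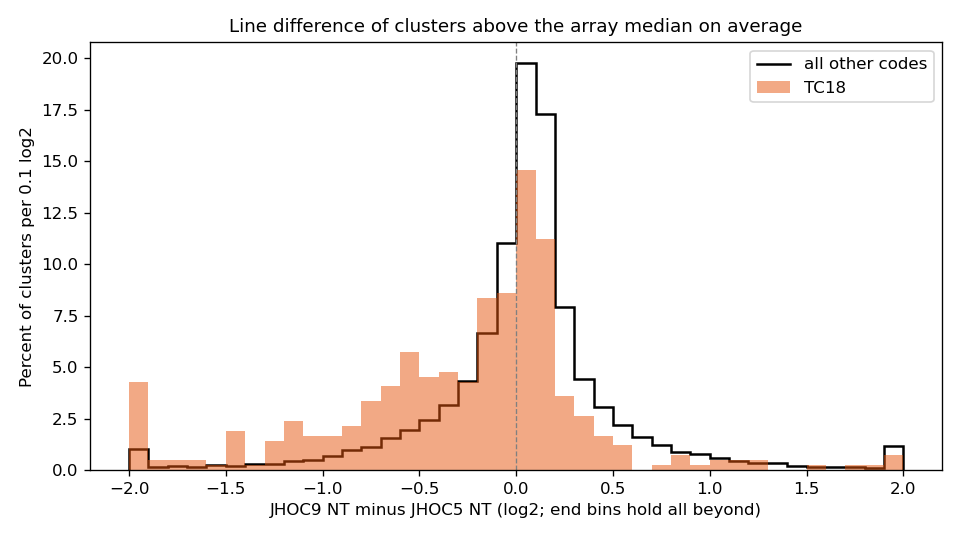
Distribution of the NT difference (JHOC9 minus JHOC5, log2, horizontal axis) for brighter clusters, as the percent of clusters per bin of 0.1 log2 (vertical axis); the filled area is the 419 TC18 clusters and the line all other codes. The TC18 area extends further to the left of 0, with a median of -0.13.

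The size of the differences was moderate for most clusters and very large for a few. The median of the 251 lower clusters was -0.62 log2 (-0.47 over all lower clusters of the array), and that of the 67 higher ones was 0.42 (0.38 over all). Lower in JHOC9 by at least 2-fold were 69 clusters (beside 2.19% of all clusters), and 13 were higher by as much (beside 2.03%). The extremes differed by over 5 log2 units between the lines. TC18000230.hg.1 read 4.02, 3.92, 4.0, 4.01 and 4.10 on the JHOC9 NT arrays and 10.29, 10.01, 10.44, 10.15 and 10.43 on the JHOC5 NT arrays. TC18000433.hg.1 read 4.16, 4.19, 4.16, 4.20 and 4.43 in JHOC9 and 9.13, 9.00, 9.53, 9.35 and 9.47 in JHOC5. Both lay below the array median on every JHOC9 NT array and far above it in JHOC5, with differences of -6.25 ± 0.13 and -5.07 ± 0.11 log2 (SE). In the opposite direction, TC18000770.hg.1 read 10.64, 10.53, 10.66, 10.04 and 11.07 in JHOC9 and 4.67, 4.77, 4.62, 5.17 and 5.18 in JHOC5. TC18000245.hg.1 read 10.25, 10.20, 10.33, 9.77 and 10.50 in JHOC9 and 5.21, 5.12, 5.17, 5.10 and 5.21 in JHOC5. These 2 were higher in JHOC9 by 5.71 ± 0.19 and 5.05 ± 0.18 log2 (SE), with no overlap between the lines. Lack of overlap was a condition for naming a cluster, and 25.4% of all clusters had none between the lines' NT arrays. None of the 4 was called for either virus against NT in either line.

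The choice rested on the NT contrast, but was made with earlier results of these data known. Outside that contrast, the line difference was computed on the 12 knockdown arrays alone, averaged over both viruses. This comparison was added after seeing the data. It uses the same 2 lines and serum conditions, so it repeats the measurement and not the lines. On these arrays 240 TC18 clusters (24.0%) were called lower in JHOC9 and 57 (5.69%) higher, where 12.3% of all clusters were lower and 14.9% higher. In the other 23 codes, the share lower ran from 3.36% for chromosome Y to 20.1% for chromosome X. The share higher ran from 9.24% for chromosome Y, with chromosome 6 next at 9.58%, to 30.0% for chromosome 19. TC18 lay outside both ranges. Among the brighter TC18 clusters, 178 of 419 were lower and 40 higher, where brighter clusters of the whole array had 19% lower and 21.6% higher. Of the 582 dimmer ones 62 were lower and 17 higher, beside 5.57% and 8.02% of all dimmer clusters. A cluster can count as brighter through the line in which it is high, as TC18000230.hg.1 and TC18000433.hg.1 did. All counts, shares and medians of brighter clusters are therefore a description. Above the array median on the NT arrays of each line were 390 TC18 clusters. Of these, 162 were lower on the knockdown arrays and 34 higher, beside 18.3% and 21.2% of all such clusters. Their median difference was -0.105 log2, beside 0.044 for all such clusters. The median difference of the 419 brighter clusters was -0.11 log2, beside 0.04 for all brighter clusters and a range of -0.02 for chromosome 6 to 0.10 for chromosome 15 in the other codes. Below 0 were 261 of the 419 (62.3%), beside 39.8% of all brighter clusters.

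Most single clusters had the same direction on the control and the knockdown arrays, with the same sign for 249 of the 251 lower and 66 of the 67 higher clusters. The whole array was alike in this, with the same sign for 98.8% of its lower and 98.0% of its higher clusters. Of the 251 clusters lower in JHOC9 on NT arrays, 218 (86.9%) were called lower on the knockdown arrays too, and none was called higher. Over all clusters of the array that share was 82.4% (7037 of 8544). Of the 67 higher clusters, 44 (65.7%) were called higher again, with none called lower, beside 72.8% for the array (8123 of 11161). At least 2-fold on both sets of arrays were 58 lower and 12 higher clusters, beside 1.82% and 1.77% of all clusters. The differences of the 1001 clusters on the 2 sets had a Pearson correlation of 0.980, beside 0.966 over all clusters. That is a description across clusters, which share arrays, lines and normalization and are not independent. The extremes named above differed on the knockdown arrays by -6.34 (TC18000230.hg.1), -4.73 (TC18000433.hg.1), 5.53 (TC18000770.hg.1) and 5.09 log2 (TC18000245.hg.1), with limma adjusted p-values of 3.07e-12, 1.99e-12, 4.85e-11 and 5.56e-10. With the SPINK1 virus alone 205 TC18 clusters were lower and 38 higher, beside 9.43% and 10.6% of all clusters. With the IL-6 virus alone 206 were lower and 55 higher, beside 9.94% and 11.5%.

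**Figure D2:**
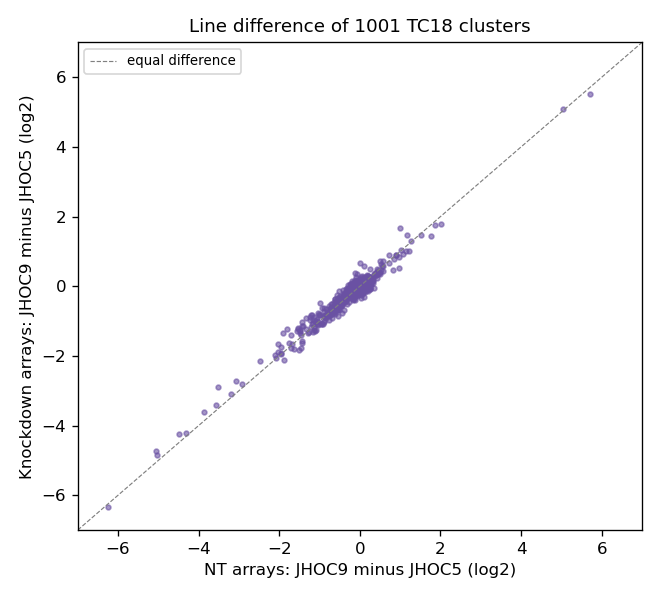
Difference between JHOC9 and JHOC5 (log2) of the 1001 TC18 clusters on the NT arrays (horizontal axis) and on the 12 knockdown arrays (vertical axis); each point is 1 cluster and the dashed line marks equal differences. The points follow the line from -6.25 to 5.71, with no cluster called in opposite directions.

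The shift was also computed array by array. For each array, the median deposited value of the brighter TC18 clusters was set against that of all brighter clusters of the array. This gave -0.0905 ± 0.0285 log2 (SD, n = 5) for JHOC9 NT, -0.106 ± 0.0184 (n = 3) for JHOC9 SPINK1 KD and -0.104 ± 0.0266 (n = 3) for JHOC9 IL-6 KD. In JHOC5 it gave 0.101 ± 0.00695 (n = 5) with NT, 0.0890 ± 0.00502 (n = 3) with SPINK1 KD and 0.109 ± 0.0146 (n = 3) with IL-6 KD. The JHOC9 arrays ranged from -0.135 to -0.0654 and the JHOC5 arrays from 0.0832 to 0.126, so the lines did not overlap. Within a line, the ranges of the 3 groups lay close together beside the gap between the lines, and no test was made of them. Over all 1001 clusters the JHOC9 arrays ranged from -0.0486 to -0.0238 and the JHOC5 arrays from 0.0248 to 0.0482. The dimmer clusters ranged from -0.0242 to -0.00476 and from 0.00941 to 0.0253. In the deposited values each cluster is centred on its median over all 22 arrays, so 0 is set by that centring and a line difference puts 1 line on each side of it. The chromosome was chosen on NT arrays that enter this centring, so these values are a description.

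**Figure D3:**
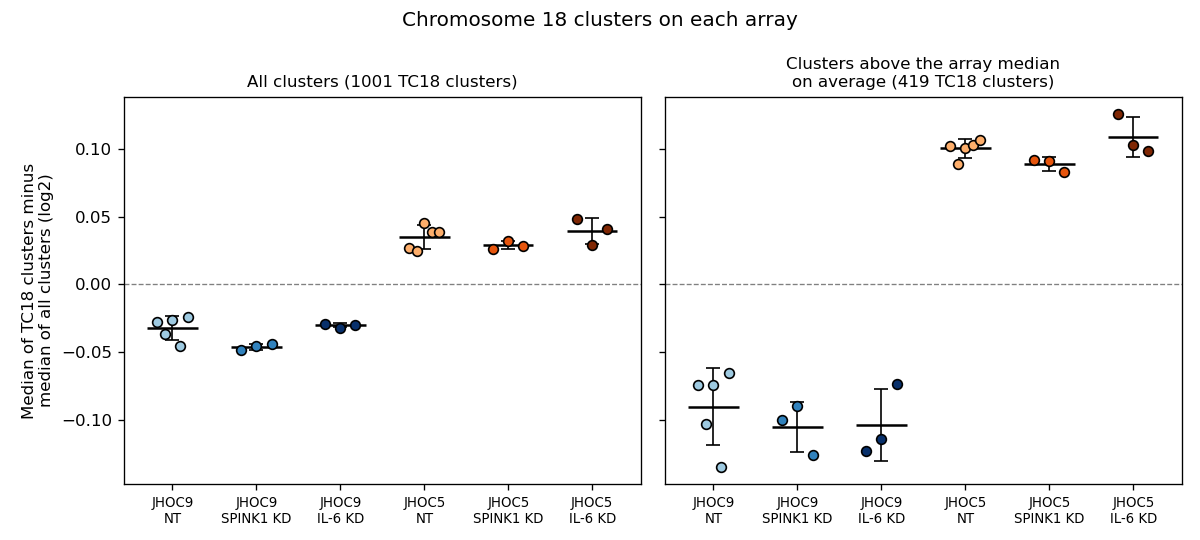
Median of the TC18 clusters minus the median of all clusters on each array (log2, vertical axis) for the 6 groups (horizontal axis), over all clusters on the left and over the brighter clusters on the right; points are arrays, lines are group means and bars are SDs. The lines do not overlap in either panel; 0 is set by the centring of each cluster over all 22 arrays.

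Some of the clusters called lower on the NT arrays stood next to each other in the ID order. A run is a stretch of 3 or more clusters in a row, all called in the same direction. TC18 held 14 lower runs and 1 higher run, with 66 clusters in them. Lower runs held 62 clusters (6.19%), beside 2.43% of all clusters and 5.93% for chromosome X, the next code. The larger share of lower calls on TC18 alone gives more such runs, and how much of the excess it accounts for was not tested. The longest run spanned 13 clusters, TC18000139.hg.1 to TC18000151.hg.1, with differences from -2.03 to -0.38 log2. All 13 were also called lower on the knockdown arrays, and 10 lay above the array median on average. Between the lines' NT arrays 12 had no overlap, beside 267 of the 318 TC18 calls and 25.4% of all clusters. These 13 were called on the same NT arrays, so that count adds no support. Another code, 14, held the longest run of the array, at 21 clusters. The 1 higher run, TC18000390.hg.1 to TC18000393.hg.1, had differences from 0.58 to 2.01 log2. Of its 4 clusters, 3 had the same values as clusters with other codes, so it cannot be assigned to chromosome 18.

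The difference varied along the IDs. In the first of 4 nearly equal blocks of the IDs, 88 of 250 clusters were lower in JHOC9, and 21 were higher. In the next block 59 of 250 were lower and 19 higher, in the third 63 of 250 and 11, and in the last 41 of 251 and 16. The median over brighter clusters was -0.40, -0.06, -0.17 and 0.01 log2 in the 4 blocks, over 134, 130, 86 and 69 such clusters. The knockdown arrays gave 87, 56, 56 and 41 lower clusters, so the first block also held the most there. A running median over 51 clusters reached its lowest value, -0.21, around TC18000436.hg.1 (-0.22 on the knockdown arrays) and its highest, 0.07, around TC18000345.hg.1 (0.05 on the knockdown arrays). The place of the lowest value depended on the window. Without JHOC9 NT replicate b the highest value was 0.114. Neighbours in ID order had a Pearson correlation of 0.130 in their NT difference, and 0.122 on the knockdown arrays. Other codes are not set beside these values, so they are not read as a trait of chromosome 18. Whether neighbours share a gene, probes or a region was not tested.

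**Figure D4:**
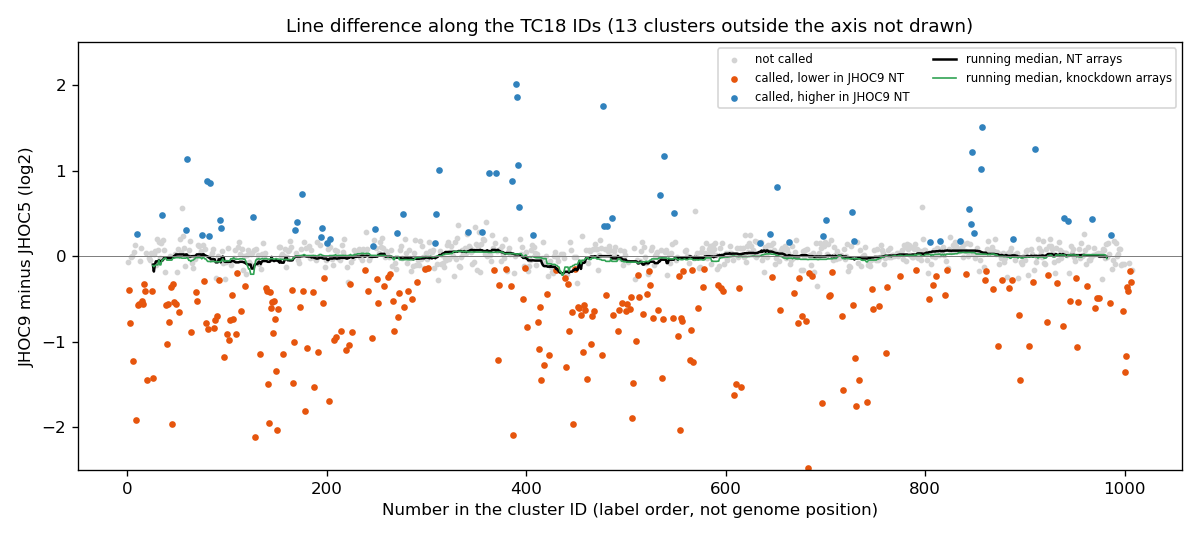
Difference between JHOC9 NT and JHOC5 NT (log2, vertical axis) of each TC18 cluster against the number in its ID (horizontal axis); coloured points are called, and the lines are running medians over 51 clusters on the NT and knockdown arrays. Points beyond 2.5 log2 (13 clusters) are not drawn, and lower calls occur along all IDs, with 88 in the first of 4 blocks of IDs and 41 in the last.

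With the SPINK1 virus, few TC18 clusters were called in JHOC9 and more in JHOC5. The same held for the whole array, with 0.0839% of all clusters called in JHOC9 and 6.54% in JHOC5. This comparison asks which clusters changed with the 1 SPINK1 virus in each line. Whether they depend on SPINK1 itself was not tested. In JHOC5, 46 TC18 clusters fell (4.60%) and 23 rose (2.30%), where 3.86% of all clusters fell and 2.68% rose, so the share on chromosome 18 was near that of the array. The falls had a median of -0.55 log2 and the rises one of 0.36. At least 2-fold falls were seen for 4 clusters, beside 0.411% of all clusters, and no rise was that large, beside 0.029%. Brighter clusters made up 37 of the 46 falls and 17 of the 23 rises, beside 89.8% of all falls and 82.1% of all rises on the array. Without JHOC5 SPINK1 KD replicate d, or without e, 46 clusters were called. With arrays centred on their medians, or after cyclic loess, the split was 14 rises and 49 falls. In the main fit the median change over all clusters was 0.048 log2, so such settings shift changes across the whole array. The array's own split is not set beside this one, so nothing about chromosome 18 is read from it.

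The largest falls brought JHOC5 clusters down to about the level they had in JHOC9. TC18000009.hg.1 read 8.06, 7.51, 7.80, 7.75 and 7.61 with NT virus and 6.40, 5.96 and 5.52 with SPINK1 virus in JHOC5, a change of -1.79 ± 0.15 log2 (SE, limma adjusted p = 8.64e-08). TC18000187.hg.1 read 7.47, 6.97, 7.38, 7.51 and 7.35 with NT and 6.01, 5.37 and 5.36 with SPINK1 virus, a change of -1.76 ± 0.15 (limma adjusted p = 1.24e-07). No knockdown array overlapped an NT array for either cluster, which was a condition for naming them and so is no support. Over all clusters 15.4% had no overlap in this comparison, and of TC18 clusters 12.9%. Replicate c was the highest of the 3 knockdown arrays for both TC18000009.hg.1 and TC18000187.hg.1. In JHOC9 the NT means of TC18000009.hg.1 and TC18000187.hg.1 were 5.84 and 5.81, and their SPINK1 changes of -0.37 and -0.57 were not called. The largest rises in JHOC5 were TC18000608.hg.1, by 0.68 ± 0.13 log2 (limma adjusted p = 0.00129), and TC18000020.hg.1, by 0.66 ± 0.11 (limma adjusted p = 0.000584). TC18000608.hg.1 read 6.61, 7.16, 7.11, 6.90 and 6.85 with NT and 7.49, 7.62 and 7.72 with SPINK1 virus. TC18000020.hg.1 read 6.51, 6.88, 6.89, 6.68 and 6.67 with NT and 7.40, 7.44 and 7.32 with SPINK1 virus. All SPINK1 arrays lay above all NT arrays for both, as the naming rule required.

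In JHOC9 the SPINK1 virus gave 1 called TC18 cluster, beside 0.0839% of all clusters in either direction. TC18000458.hg.1 read 8.24, 8.32, 8.15, 8.13 and 8.20 with NT and 7.75, 7.84 and 7.65 with SPINK1 virus, a fall of -0.46 ± 0.07 log2 (SE, limma adjusted p = 0.00544). It was called in JHOC5 too, where it read 8.85, 8.69, 8.80, 8.79 and 8.78 with NT and 7.89, 7.59 and 7.56 with SPINK1 virus, a change of -1.10 ± 0.07. The fall was larger in JHOC5, by an effect difference of 0.64 ± 0.10 (JHOC9 minus JHOC5, limma adjusted p = 0.00117). The IL-6 virus changed TC18000458.hg.1 by -0.03 in JHOC9 and -0.01 in JHOC5, and neither was called. The JHOC9 call was lost without JHOC9 SPINK1 KD replicate c and in a fit of the compared groups alone, with an adjusted p of up to 0.13. At an unadjusted p under 0.05, 31 TC18 clusters (3.10%) differed in JHOC9, beside 4.95% of all clusters. Of the 46 clusters that fell in JHOC5, 38 (82.6%) had a change below 0 in JHOC9, with a median of -0.08, beside 82.1% over the array. Of the 23 that rose, 17 (73.9%) had a change above 0 in JHOC9, with a median of 0.05, beside 81.9% over the array.

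The SPINK1 effect itself differed between the lines for 15 TC18 clusters. For 11 the change in JHOC9 minus that in JHOC5 was positive (1.10%, beside 1.03% of all clusters), and for 4 it was negative (0.400%, beside 0.214%). All 15 were called in JHOC5 and 1, TC18000458.hg.1, in JHOC9. The largest positive difference was TC18000178.hg.1, by 1.45 ± 0.17 log2 (SE, limma adjusted p = 0.000189). In JHOC5 it read 7.72, 7.27, 7.74, 7.57 and 7.55 with NT and 6.10, 5.79 and 5.68 with SPINK1 virus. In JHOC9 it read 5.82, 5.81, 5.79, 5.71 and 5.67 with NT and 5.42, 5.60 and 5.47 with SPINK1 virus. The JHOC5 arrays with SPINK1 virus thus lay near the JHOC9 NT arrays, which started lower. TC18000009.hg.1 differed by 1.41 ± 0.22 (limma adjusted p = 0.00112). The largest negative differences were TC18000820.hg.1, by -0.72 ± 0.16 (limma adjusted p = 0.0259), below the array median on every array, and TC18000987.hg.1, by -0.49 ± 0.10 (limma adjusted p = 0.0176). Those 2 calls were lost in 8 of 30 and 5 of 31 other settings. The count of 15 became 29 without JHOC5 SPINK1 KD replicate c, 7 without d, 9 without e and 9 without JHOC9 SPINK1 KD replicate b.

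**Figure D5:**
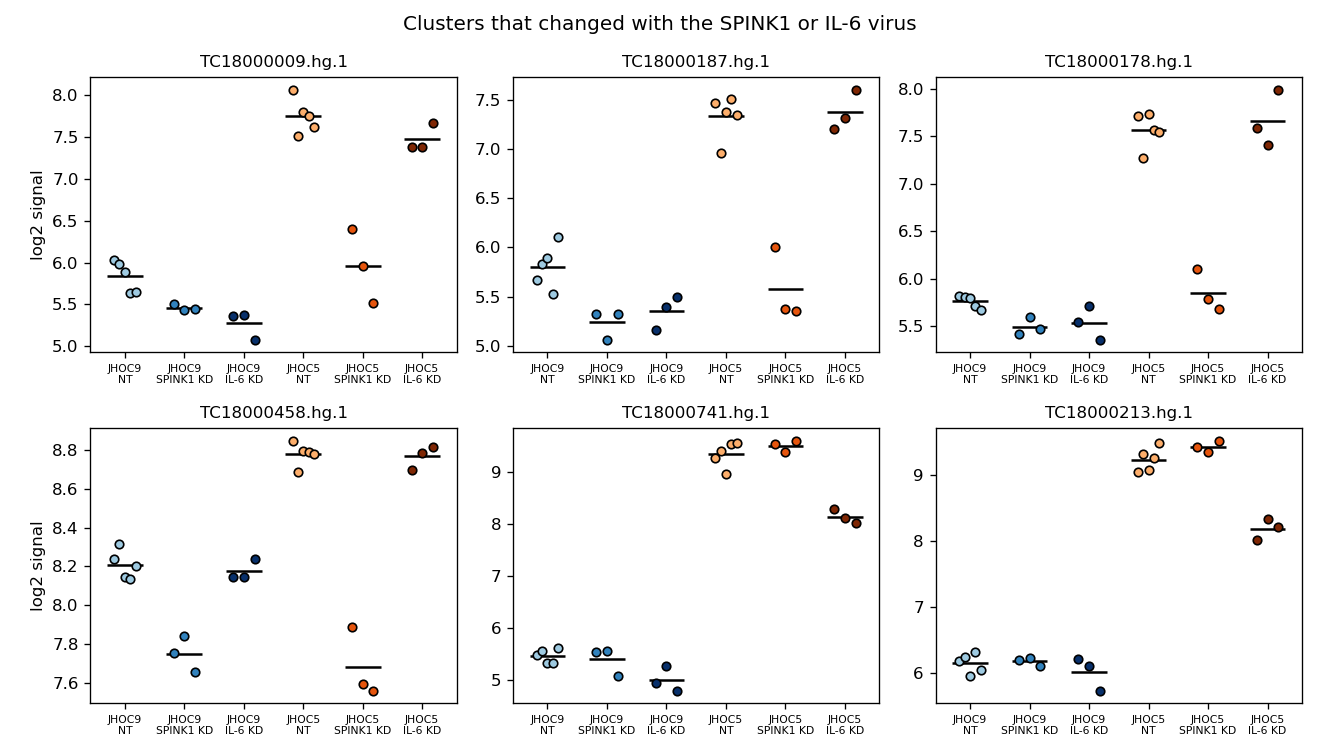
Log2 signal (vertical axis) of 6 TC18 clusters on each array in the 6 groups (horizontal axis); points are arrays and lines are group means. TC18000009.hg.1, TC18000187.hg.1 and TC18000178.hg.1 are low with the SPINK1 virus in JHOC5, TC18000458.hg.1 is low with it in both lines, and TC18000741.hg.1 and TC18000213.hg.1 are low with the IL-6 virus in JHOC5.

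The IL-6 virus lowered 12 TC18 clusters in JHOC5 (1.20%, beside 0.954% of all clusters) and raised 1 (0.0999%, beside 0.435%). Its largest falls were in clusters that JHOC9 held at a much lower level. TC18000741.hg.1 read 9.25, 9.40, 8.95, 9.52 and 9.54 with NT and 8.28, 8.11 and 8.01 with IL-6 virus, a change of -1.20 ± 0.13 log2 (SE, limma adjusted p = 2.23e-05). TC18000213.hg.1 read 9.04, 9.32, 9.07, 9.26 and 9.48 with NT and 8.01, 8.33 and 8.21 with IL-6 virus, a change of -1.05 ± 0.11 (limma adjusted p = 1.32e-05). Their JHOC9 NT means were 5.47 and 6.15. The 1 rise was TC18000165.hg.1, which read 7.20, 6.98, 7.17, 6.89 and 6.92 with NT and 7.87, 7.50 and 7.79 with IL-6 virus, a change of 0.69 ± 0.11 (limma adjusted p = 0.00178). Groups did not overlap for any of the 3, as the naming rule required, beside 7.52% of all clusters without overlap. Without JHOC5 IL-6 KD replicate a the count was 8, with 3 rises and 5 falls.

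In JHOC9 limma called no TC18 cluster with the IL-6 virus, beside 0.243% of all clusters. At an unadjusted p under 0.05, 93 (9.29%) differed, beside 10.8% of all clusters. Without JHOC5 NT replicate c 1 cluster was called, and without JHOC5 SPINK1 KD replicate c 2 were. The 12 clusters that fell in JHOC5 all had a change below 0 in JHOC9, with a median of -0.18, beside 88.8% of such clusters over the array. The IL-6 effect differed between the lines for no TC18 cluster by limma, beside 0.00305% of all clusters, and for 73 (7.29%) at an unadjusted p under 0.05, beside 6.67%. It gave 1 call without JHOC9 IL-6 KD replicate e or without JHOC5 NT replicate a.

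Set against each other in JHOC5, the SPINK1 virus left 30 TC18 clusters higher than the IL-6 virus did (beside 2.75% of all clusters) and 46 lower (beside 3.22%). The largest differences were in clusters already named: TC18000741.hg.1 at 1.36 and TC18000213.hg.1 at 1.24 log2, TC18000178.hg.1 at -1.81 and TC18000187.hg.1 at -1.80. The first pair was lower with the IL-6 virus and the second pair with the SPINK1 virus, and all 4 were called. In a fit of the compared groups alone the count was 40, not 76. In JHOC9, 2 TC18 clusters differed between the viruses, beside 0.629% of all clusters. TC18000248.hg.1 read 10.34, 10.27 and 10.28 with SPINK1 virus and 9.76, 9.85 and 9.64 with IL-6 virus, a difference of 0.55 ± 0.11 log2 (SE, limma adjusted p = 0.0312). TC18000458.hg.1 was lower with SPINK1 virus by -0.43 ± 0.08 (limma adjusted p = 0.0125). These calls were lost in 8 and 6 of 32 other settings, and none was left without JHOC9 SPINK1 KD replicate a or without JHOC9 IL-6 KD replicate e. Without replicate b of either virus 1 was left.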

How the data were processed

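Biotin-labelled RNA was read on 22 arrays of the type Human Transcriptome Array 2.0, per the labels. The submitters' processing notes name RMA, which corrects background, brings arrays to a common distribution and summarises probes. An overall shift in RNA content would therefore not appear. The build is not given in the sources used here. In the deposited log2 values, each cluster's median over all arrays was subtracted from its log2 signal. This was checked against the deposited intensity values, to within 2.06e-06, and those intensities gave the log2 levels.

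Groups came from the sample titles. limma 3.58.1 (R 4.3.3, with version 1.17.8 of data.table) fitted 6 group means to all 65526 clusters, and eBayes contrasts were adjusted by Benjamini-Hochberg at 0.05, two-sided, with 16 residual degrees of freedom and 4.22 from the prior. The fit on the 12 knockdown arrays had 8 and 4.29, and was added after seeing the data. The code was tested on simulated data. Figures used matplotlib 3.10.9 under Python 3.11.15. Changes are differences of log2 means with moderated SEs. Precision is limited by the number of arrays.

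The chromosome, the members and the lists were chosen with earlier results of these data known. The rule named, per comparison, the 2 largest rises and 2 largest falls that were called with no overlap between the compared arrays (for effect differences between lines, called only), clusters called for 1 virus in both lines, and the ends of the longest runs. Preset gene lists and marker checks needed gene names and were not analysed here.

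Groups share replicate letters. Deviations of same-lettered JHOC9 SPINK1 KD and NT arrays from their group means correlated at 0.432, 0.322 and 0.203. By these values the comparison counts as paired, but its SEs and p-values above come from the fit without pairing. With the letter as a replicate block its count stayed at 1. The other knockdown, virus and line comparisons had a pair under 0.1 or a single shared letter; same-lettered NT arrays of the lines correlated between -0.228 and 0.14. The 2 most alike arrays of a group differed by a median of 0.0781 log2, so no array was a copy. Alternatives were the block, fewer arrays, leaving out clusters that exceeded the array median on fewer than 3 arrays, centring and cyclic loess, the intensities as input, other eBayes settings, array weights, a 1.5-fold minimum, repeated clusters once, and each array left out.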

Additional observations from a re-analysis of the deposited data

Results flagged for a closer look

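Among the 36 groups of NT arrays behind the named clusters, 3 held an array apart from the other 4 by Dixon's ratio, where chance gives about 1 in 20. TC18000433.hg.1 read 4.43 on JHOC9 NT replicate e and between 4.16 and 4.20 on the other arrays. TC18000987.hg.1 read 6.45 on JHOC9 NT replicate e and between 6.19 and 6.25 on the others. TC18000248.hg.1 read 10.08 on JHOC5 NT replicate c and between 9.81 and 9.85 on the others.

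The SPINK1 effect differed between the lines, by the interaction in limma, for 15 TC18 clusters. Those named for this comparison were TC18000178.hg.1 (1.45 log2, JHOC9 minus JHOC5), TC18000009.hg.1 (1.41), TC18000820.hg.1 (-0.72) and TC18000987.hg.1 (-0.49).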

How the results depend on the processing

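No result changed sign with its call under any alternative run, and the other deposited table gave the same counts. Counts under other settings, here and above, are given without the share of all clusters under the same setting. They describe how TC18 calls depend on the processing, and nothing about chromosome 18 beside the array is read from them. With array weights, TC18 calls rose to 34 for SPINK1 in JHOC9, 49 for IL-6 in JHOC5, 59 and 10 for the SPINK1 and IL-6 effect differences, and 104 and 117 between the viruses in JHOC9 and JHOC5; JHOC9 SPINK1 KD replicate b had the highest weight, 6.46. With the replicate block the counts were 3 for IL-6 in JHOC9, 24 and 1 for the SPINK1 and IL-6 effect differences, and 0 between the viruses in JHOC9, and within 1.5 times the main count for SPINK1 in both lines, IL-6 in JHOC5 and the viruses in JHOC5. A letter within a line leaves no value for a difference between lines, so a block shared by the lines was added after seeing the data; it gave 319 calls between the NT arrays and 274 between the knockdown arrays. Fits of the compared groups alone gave 0 for SPINK1 in JHOC9 and 0 and 40 between the viruses, and the JHOC9 arrays alone gave 0 between the viruses. Centred arrays gave 1 between the viruses in JHOC9, and trend and robust settings gave 9 SPINK1 effect differences. With a change of at least 1.5-fold, 156 calls were left between the NT arrays, 154 between the lines' knockdown arrays, 0 and 22 for SPINK1 in JHOC9 and JHOC5, 7 for IL-6 in JHOC5, and 0 and 28 between the viruses.

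The TC18 median of the NT difference was -0.131 without dim clusters, -0.0413 with centred arrays, -0.0428 after cyclic loess and -0.0545 relative to the other codes. The JHOC5 SPINK1 median, 0.0334 in the main fit, was -0.00183, -0.00857 and -0.0150 under the last 3, and the JHOC9 IL-6 median, 0.0326, was -0.000693, -0.00954 and -0.00116. Clusters in runs numbered 117 without dim clusters and 19 with runs of at least 5. The lowest running median was -0.417 over 25 clusters and -0.124 over the wider window tried. The value over 25 clusters is the NT difference of TC18000143.hg.1, in the longest lower run. That low point therefore lay elsewhere than the one around TC18000436.hg.1.

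Leaving out each array gave 294 to 329 calls between the NT arrays, 279 to 308 between the knockdown arrays, 0 to 1 and 46 to 72 for SPINK1 in JHOC9 and JHOC5, 0 to 2 and 8 to 15 for IL-6, 7 to 29 and 0 to 1 effect differences, 0 to 3 and 55 to 77 between the viruses, 61 to 71 clusters in runs, and a running median of -0.253 to -0.189. For the counts that moved, the cause was not tested.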
